A study of Mus musculus with 3 samples.

Results

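MicroRNA miR-122 was followed in mouse liver after a sham operation (Sham), after clamping of the blood supply alone (warm ischemia, WI) and after clamping with renewed blood flow (ischemia-reperfusion, IR). Its members were chosen by name, as the rows mmu-miR-122-5p and mmu-miR-122-3p, the 2 mature arms cut from its hairpin, out of 1908 listed mature microRNAs of which 851 had reads. Small RNA came from the livers of male mice of the inbred C57BL/6J strain aged 8 to 10 weeks, with 1 library for each group. The Sham mice had the abdomen opened without vessel clamping and were kept for 90 min. The WI mice had the vessels and bile duct of the left and median lobes clamped for 90 min, and the IR mice had the same clamping and then 120 min of blood flow. Each group held 6 mice, and how many of them entered a library was not stated. The IR livers came from a later time point than the Sham and WI livers, so reperfusion and time since surgery cannot be told apart.

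MiR-122 is made almost only in hepatocytes, the main cells of the liver, and is known there as the dominant microRNA. It represses messenger RNAs by pairing with them, supports lipid and cholesterol metabolism and helps to keep the hepatocyte state. When hepatocytes are injured it leaks into the blood, where its level is used as a marker of liver damage. Like other microRNAs it is cut from a hairpin as a duplex. In miR-122 the 5p strand is mostly kept and the 3p strand is mostly discarded. Its hairpin gene, annotated as Mir122a, lies on the plus strand of chromosome 18 (65408515 to 65408580, mm9), outside every other annotated gene. The nearest annotated genes are Nedd4l, which ends 31035 bases to the left, and Alpk2, which begins 16603 bases to the right.

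The Sham library held 3844133 microRNA reads, the WI library 5064014 and the IR library 3784539. Scaling used the trimmed mean of M-values (TMM), and levels are given as reads per 1000000 of the scaled total (CPM). The smallest level that 3 reads allow lay between 0.617 and 0.785 CPM, far below both arms. With 1 library per group no value has a replicate, so each interval and p-value below covers counting error and compares libraries rather than conditions. In whole liver, fewer hepatocytes and less miR-122 in each hepatocyte cannot be told apart.

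The 5p arm was highest in the WI library and lowest in the IR library. Mmu-miR-122-5p had 63202 reads in the Sham library, 92431 in the WI library and 58752 in the IR library. It took 1.64% of the Sham microRNA reads (95% exact binomial interval 1.63 to 1.66), 1.83% of the WI reads (1.81 to 1.84) and 1.55% of the IR reads (1.54 to 1.56). The intervals of the libraries did not overlap. These shares amounted to 1 in 60.8 microRNA reads (Sham), 1 in 54.8 (WI) and 1 in 64.4 (IR).

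The 3p arm stayed near 0.11% throughout. Mmu-miR-122-3p had 4336 Sham reads, 5457 WI reads and 4081 IR reads. Its share of the library was 0.113% for Sham (0.109 to 0.116), 0.108% for WI (0.105 to 0.111) and 0.108% for IR (0.105 to 0.111), and the 3 intervals overlapped. After TMM scaling the Sham level was 1095 CPM, the WI level 1122 and the IR level 1067.

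**Figure D1:**
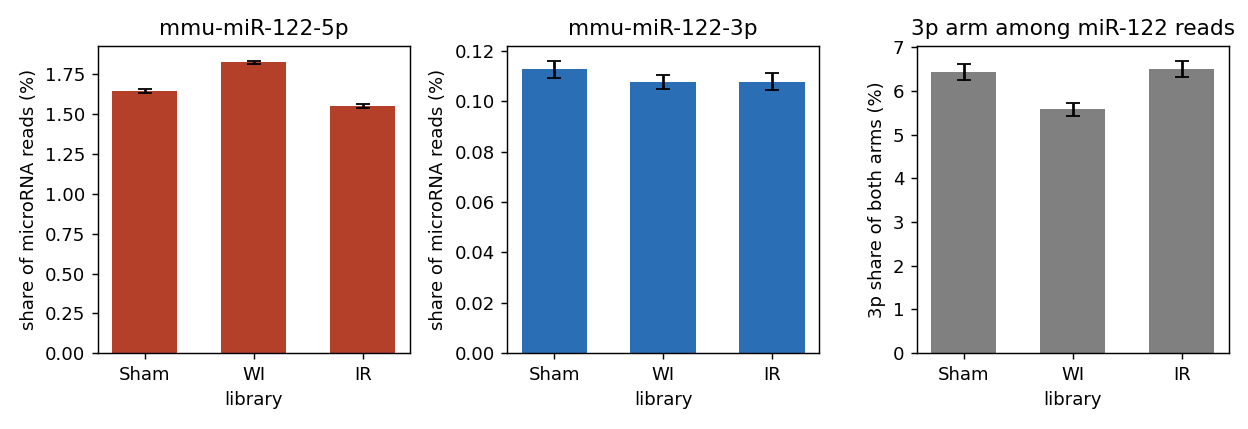
Bars give the share of microRNA reads taken by each miR-122 arm, and the share of the 3p arm among the reads of both arms, in percent for the single library of each group, with 95% exact binomial intervals as error bars. The 5p share peaks at 1.83% in WI, the 3p share lies near 0.11% in every library, and the 3p part of the hairpin dips to 5.57% in WI.

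By reads, the data did not show the place for which miR-122 is known in liver, the most abundant microRNA. The libraries were made by ligating adapters, and how evenly different microRNAs were captured was not measured. An order of reads, and a ratio between different microRNAs, therefore need not be an order or ratio of abundance in the liver. The most reads in every library belonged to miR-192-5p, with 962981 Sham, 1255380 WI and 905419 IR reads. In the order of reads, miR-122-5p ranked 12 in the Sham library, 12 in the WI library and 11 in the IR library. It changed places with miR-126a-5p, a microRNA of endothelial cells. Mmu-miR-122-5p had 0.978 reads for each Sham read of miR-126a-5p (95% counting interval 0.968 to 0.989), 0.958 for each WI read (0.949 to 0.967) and 1.05 for each IR read (1.04 to 1.07). These neighbours were thus within a few percent of each other, yet each library set them apart beyond counting error. The next neighbours were clearly separated. Each read of let-7f-5p, above, was matched by 0.680 (Sham), 0.702 (WI) and 0.822 (IR) reads of miR-122-5p, and each read of miR-378a-3p, below, by 1.41, 1.63 and 1.20.

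The 3p arm ranked 51, 51 and 54 in the same order of libraries. It could not be separated by counting error from miR-107-3p in Sham, with 1.03 reads to 1 (0.990 to 1.08), or from miR-30b-5p in IR, with 1.04 (0.992 to 1.08).

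WI was compared with Sham to ask what ischemia alone does. Mmu-miR-122-5p rose from 15960 to 18999 CPM, an increase of 19.0%. Its log2 fold change was 0.25 (counting SE 0.0074), with Fisher's exact p = 7.01e-257, and a Benjamini-Hochberg value of 9.14e-255 over 782 microRNAs. The difference was larger than counting error, but the fold change of 1.19 was below 1.5, so it was not called a differentially expressed (DE) microRNA under the criteria of a fold change above 1.5 and p under 0.01. Of the microRNAs tested, 15 were called (1.92%), and neither arm of miR-122 was among them. Mmu-miR-122-3p went from 1095 to 1122 CPM, a log2 fold change of 0.03 (SE 0.029, Fisher's exact p = 0.238).

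Among abundant microRNAs the shift of the 5p arm was sizable. Of 120 microRNAs that reached 1000 reads over the 2 libraries, 24 moved farther in either direction and 15 lay higher. Their median log2 fold change was 0.05, and percentiles 5 and 95 were -0.30 and 0.34. For the 3p arm, 96 of the 120 moved farther.

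Variation between animals, or between libraries of a group, was not measured. If the coefficient of variation between libraries were 0.1, the exact test of edgeR would give p = 0.219 for the 5p arm in WI against Sham.

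IR was then compared with WI, to ask what the return of blood adds. Mmu-miR-122-5p went from 18999 to 15364 CPM, and so fell by 19.1%. On the log2 scale it fell by 0.31 (SE 0.0076), a fold change of 1.24, and Fisher's exact p was too small to be represented. It was not called, while 73 of 789 microRNAs were (9.25%). This depended on the scaling, since totals of reads aligned to the genome gave a log2 fold change of -0.63, past the fold threshold of 1.5. The same totals moved the median of all tested microRNAs to -0.32, from -0.01 with TMM, so that the 5p arm lay at -0.31 from the median with them and at -0.29 from it with TMM. Of the abundant microRNAs 27.9% moved farther than the 5p arm, and 19 lay lower.

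Mmu-miR-122-3p went from 1122 to 1067 CPM in the same comparison, a log2 fold change of -0.07 (SE 0.030, Fisher's exact p = 0.0162). It did not pass the threshold of 0.01 and was not called. This too depended on the scaling, since its log2 fold change was 0.00098 with microRNA totals, a change of sign, and -0.40 with the genome-aligned ones (p = 1.46e-40 by Fisher's exact test), past the p threshold but not the fold threshold. At an assumed coefficient of 0.1, p was 0.134 for the 5p arm and 0.729 for the 3p arm by the exact test of edgeR.

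IR against Sham sets the end of the sequence beside its start. Mmu-miR-122-5p went from 15960 CPM to 15364 CPM, with a log2 fold change of -0.05 (SE 0.0083, Fisher's exact p = 2.17e-11). It decreased by 3.73%, more than counting error, and 83 of 116 abundant microRNAs moved farther. Mmu-miR-122-3p had a log2 fold change of -0.04 (SE 0.031, Fisher's exact p = 0.243). Neither arm was called, against 55 of 774 microRNAs (7.11%), and 17 of the 116 abundant ones. The 3 comparisons share libraries, so the rise in WI and the fall from WI to IR both rest on the WI library.

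**Figure D2:**
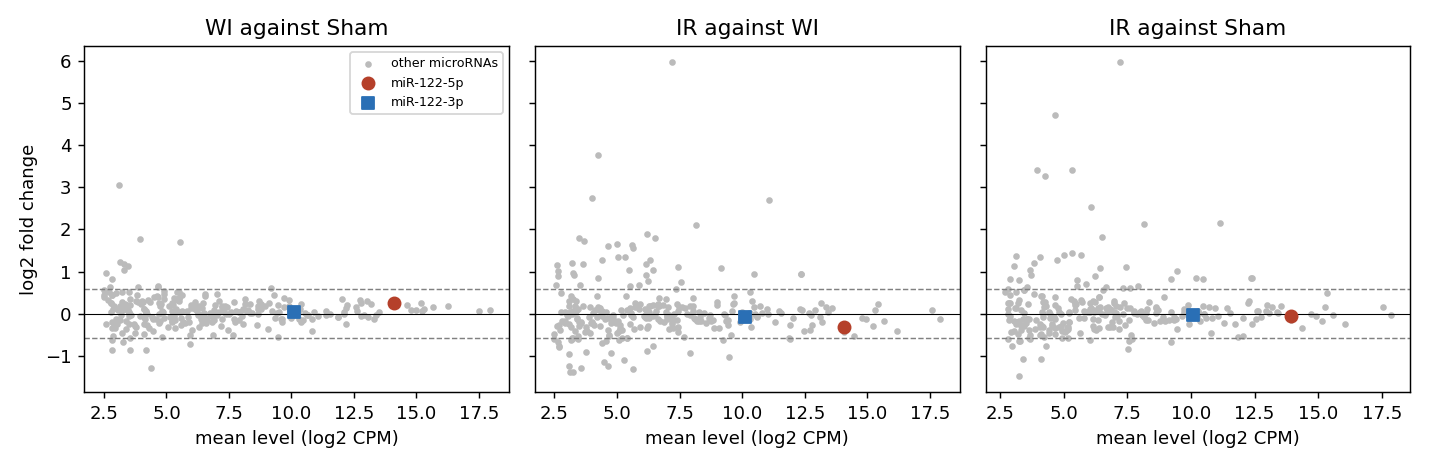
Each point is a microRNA with at least 50 reads over the 2 libraries compared, placed by its mean level in log2 CPM and its log2 fold change, with dashed lines at a fold change of 1.5. Both miR-122 arms sit between the dashed lines in every comparison, with the 5p arm at 0.25, -0.31 and -0.05.

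The direction of the 5p arm was then set against the scaling. With 6 scalings its log2 fold change in WI against Sham ranged from 0.15 (microRNA totals) to 0.41 (genome-aligned totals). In IR against WI it ranged from -0.63 to -0.23, and in IR against Sham from -0.22 to -0.05. The sign was the same with all 6 in each comparison. Measured from the median of tested microRNAs, the WI value was 0.21 with every scaling. Such a distance hardly varies by construction, because a scaling shifts all log2 fold changes by almost the same amount, so it does not measure stability. The 3p arm had no stable sign in WI against Sham, from -0.07 with microRNA totals to 0.19 with genome-aligned totals. Its distance from the median, fixed in the same way, lay between -0.011 and -0.0087. In IR against Sham the 3p arm reached -0.21 with genome-aligned totals.

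**Figure D3:**
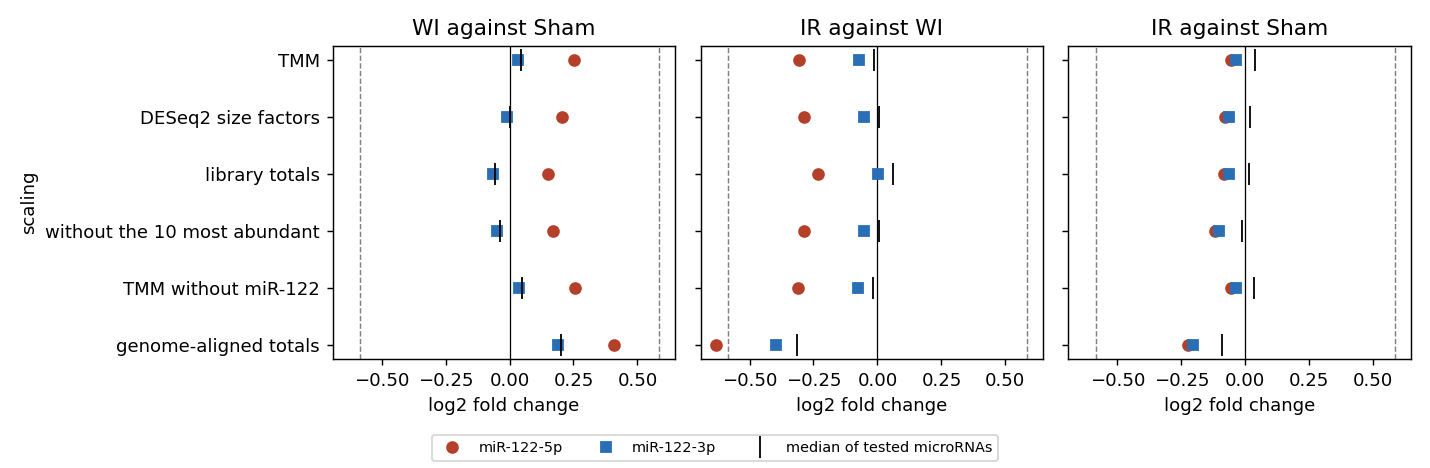
The log2 fold change of each miR-122 arm (circles 5p, squares 3p) and the median of all tested microRNAs (bars) are drawn for 6 ways of scaling the libraries, with dashed lines at a fold change of 1.5. The 5p arm keeps its side of 0 in every row and crosses the dashed line only with genome-aligned totals in IR against WI, at -0.63.

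The ratio of the arms needs no scaling between libraries. For each read of 3p the Sham library had 14.6 reads of 5p (95% counting interval 14.1 to 15.03), the WI library 16.9 (16.5 to 17.4) and the IR library 14.4 (13.9 to 14.9). The 3p arm held 6.42% of the Sham reads of both arms (6.24 to 6.61), 5.57% of the WI reads (5.43 to 5.72) and 6.49% of the IR reads (6.30 to 6.69). WI stood apart from the others, and the Sham and IR intervals overlapped. Between Sham and WI the log2 ratio of 3p to 5p changed by -0.22 (SE 0.030, Fisher's exact p = 9.68e-13). Between WI and IR it changed by 0.23 (SE 0.031, Fisher's exact p = 3.57e-14). From Sham to IR it changed by 0.02, with an interval of -0.05 to 0.08 (Fisher's exact p = 0.588). The ratio does not tell which arm moved, since the level of each depends on the scaling.

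None of the arm ratio changes of miR-122 was called at a ratio change above 1.5 and p under 0.01. The same rule called 4 of 77 hairpins in WI against Sham (5.19%), 6 of 74 in IR against WI (8.11%) and 4 of 68 in IR against Sham (5.88%). These were hairpins with both arms listed and at least 50 reads of the minor arm. A change of the size seen in miR-122 was common, since 38 of 77 hairpins moved farther in WI against Sham, 32 of 74 in IR against WI and 66 of 68 in IR against Sham. Many of those had few reads. Of the 14 hairpins with at least 1000 minor-arm reads, 3 moved farther than miR-122 after ischemia and 4 from WI to IR.

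The 3 deeply read hairpins that moved farther in WI against Sham were miR-142 (0.50, SE 0.089), miR-126a (-0.28, SE 0.019) and miR-148a (-0.28, SE 0.040). In the endothelial miR-126a, as in miR-122, the 5p arm rose in WI with TMM, by 0.28 on the log2 scale. With TMM its 3p arm did not differ beyond counting error (log2 fold change -0.0022, Fisher's exact p = 0.906). Other scalings shift both arms alike, and with genome-aligned totals both lay above 0, so which arm moved is not told here either. From WI to IR the 3p to 5p ratio of miR-126a changed by 0.46 (SE 0.020). The largest arm changes of all belonged to thinner hairpins. MiR-455 led in WI against Sham (1.79, SE 0.22), ahead of miR-27a (-1.30, SE 0.34) and miR-99a (0.81, SE 0.27), and miR-223 led in IR against WI (2.09, SE 0.37) and in IR against Sham (1.88, SE 0.39). MiR-212 and miR-27a came next in IR against WI (1.77 and 1.46), and miR-30b and miR-212 in IR against Sham (-1.72 and 1.57).

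The strand bias of miR-122 itself was ordinary. Among 83 hairpins with at least 50 minor-arm reads over the 3 libraries, 39 had a larger minor-arm share in Sham, 40 in WI and 37 in IR, and the median minor-arm share was 5.05%, 5.39% and 4.53%. Ordered by the 3p to 5p ratio, its neighbours were miR-195a and miR-1843a in Sham, miR-142 and miR-195a in WI, and miR-1843a and miR-1247 in IR.

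**Figure D4:**
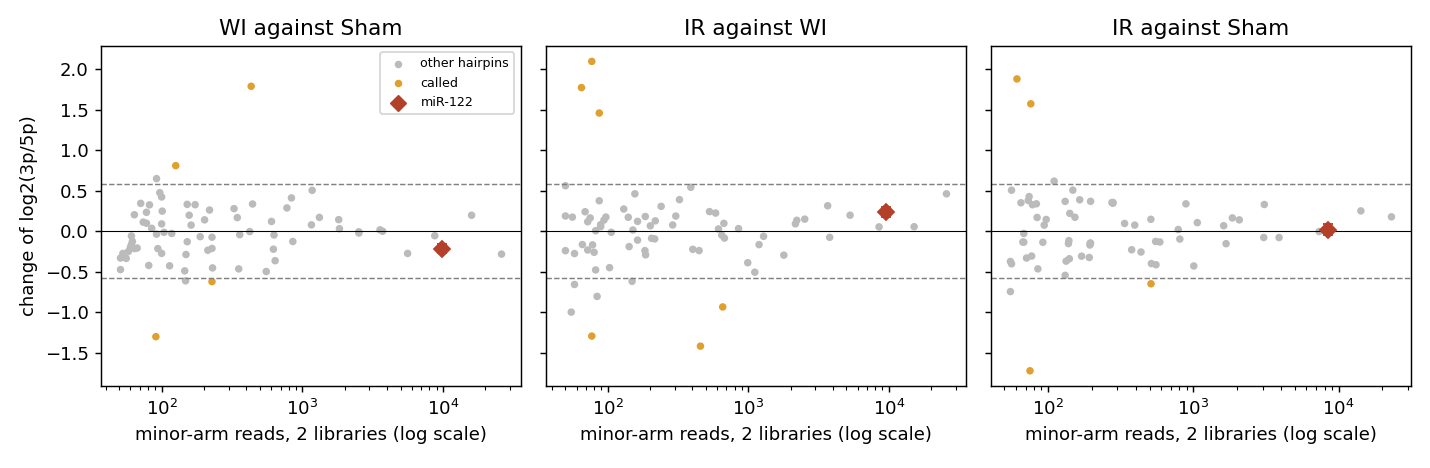
Each point is a hairpin, placed by the reads of its minor arm in the 2 libraries compared (log scale) and the change of its log2 3p to 5p ratio, with called hairpins in orange, dashed lines at a ratio change of 1.5, and a 95% counting interval on miR-122 (diamond). MiR-122 lies at -0.22, 0.23 and 0.02, between the dashed lines, and the called hairpins have fewer than 1000 minor-arm reads.

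The microRNAs whose pattern was most like that of miR-122-5p were found by the distance between pairs of log2 fold changes (WI against Sham, IR against Sham) among 135 others with at least 1000 reads over the 3 libraries. Likeness over 3 libraries is a description. The nearest were miR-29c-3p at a distance of 0.021, let-7d-5p at 0.030, miR-15a-5p at 0.053, miR-28a-3p at 0.062 and miR-26b-5p at 0.078. The 3p arm of miR-122 came only at place 37, at a distance of 0.22. MiR-29c-3p, which represses collagen and other matrix genes, had 496 CPM (Sham), 596 CPM (WI) and 472 CPM (IR). Let-7d-5p, of the let-7 family that restrains growth genes, had 1231, 1451 and 1163 CPM. MiR-26b-5p was the most abundant of the 5, with 6333, 7600 and 5780 CPM.

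The mature sequences of these 5 microRNAs are shown because they came closest to miR-122-5p in pattern (RefSeq, GRCm38.p6). They are written 5′ to 3′ with the seed, bases 2 to 8, in capitals, and all 5 seeds differ.
miR-29c-3p: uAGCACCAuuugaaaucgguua
let-7d-5p: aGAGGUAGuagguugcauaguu
miR-15a-5p: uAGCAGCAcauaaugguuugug
miR-28a-3p: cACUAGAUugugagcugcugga
miR-26b-5p: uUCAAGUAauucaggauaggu

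With TMM, other microRNAs listed as abundant in liver mostly lay on the same side of 0 as miR-122-5p, by differing amounts. How many of all tested microRNAs lay on that side was not counted. The list held miR-192-5p, miR-194-5p, miR-215-5p, miR-148a-3p, miR-802-5p and miR-101a-3p, and in each comparison 5 of the 6 shared the sign of miR-122-5p with TMM, or from 3 to 6 of them in WI against Sham and 4 or 5 in IR against WI with the other scalings. None of the 6 was called in WI against Sham (1.92% of all tested microRNAs), where their median log2 fold change was 0.13, against 0.05 over all. In IR against WI 1 was called as higher and 2 as lower (9.25% of all called), or between 1 and 3 as lower with the other scalings, with a median of -0.27 against -0.01 over all. In IR against Sham 1 was called as higher and 1 as lower (7.11% of all called), with a median of -0.16 against 0.04.

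The member that fell most was miR-802-5p, which acts on glucose metabolism in hepatocytes. Its levels were 734 CPM (Sham), 945 CPM (WI) and 462 CPM (IR), and its log2 level fell by 1.03 from WI to IR (SE 0.040, Fisher's exact p = 1.93e-157). MiR-101a-3p fell by 0.60 (SE 0.016) in that comparison. MiR-148a-3p, the second most abundant of the list, had a log2 fold change of 0.17 from Sham to WI, of -0.42 from WI to IR and of -0.25 from Sham to IR, each past counting error but not called. MiR-194-5p differed in sign from miR-122-5p in WI against Sham, at -0.05 (SE 0.012), and was at -0.03 (SE 0.012) in IR against WI.

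The member that rose was miR-215-5p, from a WI level of 57.1 CPM to an IR level of 117, with a log2 fold change of 1.04 (SE 0.11, Fisher's exact p = 8.82e-22). It shares its seed with miR-192-5p, the microRNA with the most reads in every library, whose log2 fold change was -0.12. The sequences of this pair (RefSeq, GRCm38.p6, seed in capitals) are shown because of that shared seed, and whether reads were exchanged between them was not tested.
miR-192-5p: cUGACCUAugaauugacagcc
miR-215-5p: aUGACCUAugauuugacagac

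Within a library, the ratio of miR-122-5p to a further microRNA is free of scaling. For each read of miR-192-5p the Sham library had 0.0656 reads of miR-122-5p, the WI library 0.0736 and the IR library 0.0649. For each read of miR-148a-3p there were 0.214, 0.226 and 0.245. Against miR-192-5p the ratio peaked in WI, while against miR-148a-3p it was highest in IR. For each read of miR-194-5p there were 2.24, 2.75 and 2.27, again with the peak in WI. MiR-215-5p gave 290, 332 and 131, also with the peak in WI. The ratios to miR-802-5p (21.8, 20.1 and 33.3) and to miR-101a-3p (4.38, 4.07 and 4.97) were lowest in WI and highest in IR. Over the 6 liver-abundant microRNAs together, each read was matched by 0.0485 (Sham), 0.0536 (WI) and 0.0496 (IR) reads of miR-122-5p. This sum was carried by miR-192-5p, with 962981 of the 1304296 Sham reads of the list.

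Markers of other cells were counted beside miR-122. The leukocyte list (miR-223-3p, miR-142-3p, miR-142-5p, miR-150-5p and miR-155-5p) summed to 3094 (Sham), 3054 (WI) and 2806 CPM (IR). With TMM only miR-223-3p, a microRNA of neutrophils and other myeloid cells, was called among the 5. It was called as higher in IR against WI (9.25% of all called) and in IR against Sham (7.11% of all called). With genome-aligned totals 1 of the 5 was also called as lower in each of these comparisons, and 1 as higher in WI against Sham. Over all microRNAs those totals gave 111, 62 and 25 calls in the same order. For each read of miR-223-3p there were 145 (Sham), 175 (WI) and 65.1 (IR) reads of miR-122-5p. The sum of the list was lowest in IR, as miR-142-5p, which holds most of its reads, went from 2735 to 2672 and 2342 CPM.

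The erythroid list moved most among the lists with many reads. MiR-451a, miR-144-3p, miR-144-5p and miR-486-5p, made in red blood cells and their precursors, summed to 5055 (Sham), 4781 (WI) and 9020 CPM (IR). None of the 4 was called in WI against Sham, where 1.92% of all tested microRNAs were. In IR against WI 3 of the 4 were called as higher with TMM, against 9.25% of all called in either direction, and 2 with genome-aligned totals. The remaining miR-144-3p had a log2 fold change of 0.20 with TMM. In IR against Sham all 4 were called as higher with TMM, against 7.11% of all, and 2 with genome-aligned totals. For each read of the list there were 3.16 (Sham), 3.97 (WI) and 1.70 (IR) reads of miR-122-5p. The erythroid rise thus came in the library in which miR-122-5p was lowest, and its part in the fall of miR-122-5p was not tested. Reads of miR-486-5p may also be shared with a near-identical microRNA.

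The endothelial pair of miR-126a arms summed to 19267, 22783 and 17568 CPM in Sham, WI and IR, and for each of its reads there were 0.828, 0.834 and 0.875 reads of miR-122-5p. Neither arm was called in any comparison with TMM, where 1.92% to 9.25% of all microRNAs were. With genome-aligned totals, which called 111 of 789 microRNAs in IR against WI, 1 of the 2 arms was called as lower there. The stromal list (miR-143-3p, miR-145a-5p, miR-199a-3p, miR-199a-5p and miR-214-3p) summed to 39670, 43072 and 35224 CPM. With TMM 0 of 5 were called in each comparison, which at 1.92% to 9.25% of all microRNAs called says little about 5. With genome-aligned totals 1 of the 5 was called as lower in IR against WI. The endothelial and stromal sums were both highest in WI and lowest in IR, the order of miR-122-5p, but each was carried by 1 member. MiR-143-3p held 38597 of the 39670 Sham CPM of the stromal list and miR-126a-5p 16311 of the 19267 of the endothelial pair. Other members took other orders, such as miR-199a-5p with 215, 198 and 217 CPM and miR-126a-3p with 2956, 2951 and 2985 CPM. The biliary epithelial list of 5 microRNAs of the miR-200 family stayed between 475 and 491 CPM. With TMM only miR-200c-3p of its members was called, as higher in IR against WI (9.25% of all called), with 18 reads in WI and 32 in IR. With genome-aligned totals 0 of the 5 were called as higher and 1 as lower in that comparison.

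The muscle list was nearly absent from the Sham library. Of miR-1a-3p, miR-133a-3p, miR-133b-3p and miR-206-3p, only miR-133a-3p had reads there, and the list summed to 27 (Sham), 118 (WI) and 291 reads (IR). MiR-133a-3p was called as higher in every comparison, where TMM called 1.92% to 9.25% of all tested microRNAs in either direction. No other member of the list was called in any of them. The sum of the list was carried by miR-133a-3p, with 115 of the 118 WI reads and 280 of the 291 IR reads. MiR-1a-3p, the defining microRNA of striated muscle, had 0, 1 and 6 reads. For each read of the list there were 2341 (Sham), 783 (WI) and 202 (IR) reads of miR-122-5p, and the part of muscle tissue in the values of miR-122 was not tested.

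**Figure D5:**
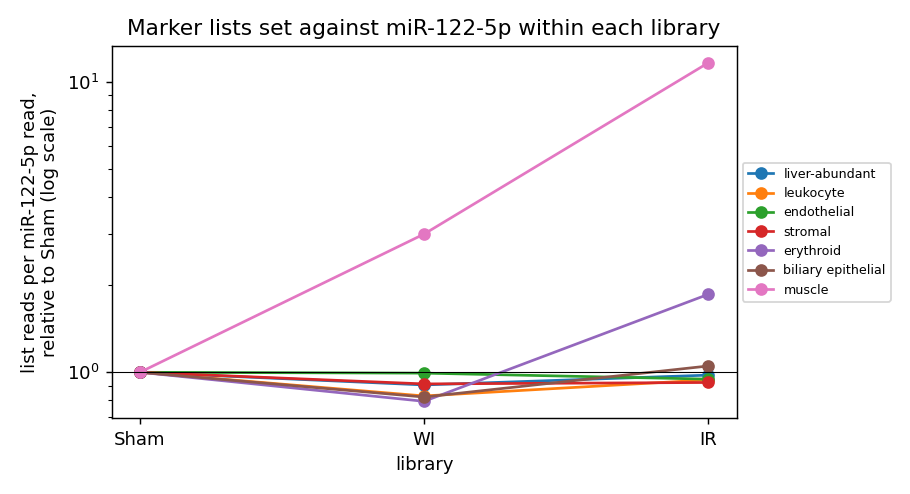
For each marker list the summed reads per read of miR-122-5p are drawn relative to the Sham library (log scale), 1 library per group. The erythroid list reaches 1.85 and the muscle list 11.6 in IR, while the other lists lie between 0.82 and 1.05 in WI and IR. The muscle list is carried by miR-133a-3p.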

How the data were processed

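Small RNA libraries of Sham, WI and IR mouse liver were sequenced on an Illumina HiSeq2000, and groups were taken from sample titles. The deposited values are raw counts of reads assigned to each mature microRNA, which were not normalised. The authors trimmed adaptors, kept reads of 15 to 30 bases, mapped them with Bowtie 0.12.7 to the mm9 genome (the submitters' processing notes list mm10), allowing 1 mismatch and at most 5 positions, sorted them by RNA class with HTSeq and ran miRDeep2 for the mature counts. Without molecular identifiers, PCR copies count as reads.

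Counts were scaled by TMM (edgeR 4.0.16, R 4.3.3), with a factor of 1.03 for Sham, 0.961 for WI and 1.01 for IR. Log2 fold changes used CPM + 0.1, which understates those of microRNAs with few reads, and their standard errors came from the counts. All microRNAs having 1 read or more in a compared library entered Fisher's exact test (two-sided, scipy 1.17.1) on reads and scaled totals. They were called at a fold change above 1.5 and p under 0.01, the thresholds in the methods of the study. The totals scaled here were those of microRNA reads, whereas the formula of the study names the mapped reads of each sample. The 3p to 5p reads of each hairpin were tested likewise between libraries. Quasi-likelihood tests need replicates and could not be fitted. Both tests were run on simulated counts with known changes before use. Alternatives changed the scaling (DESeq2 1.42.0 among them), pseudocount, filters, thresholds, depth and assumed variation.

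The microRNAs named were both arms, the fixed marker lists, neighbours in read order and arm ratio, the 5 nearest in pattern and the 3 largest arm changes. Neighbours of the 3p arm and the deeply read hairpins were added after values were seen. The members and lists were chosen with earlier results of these data known. The hairpin position is from the GENCODE annotation of NCBIM37 (mm9). Coordinates and sequences from different builds were not combined.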

Additional observations from a re-analysis of the deposited data

How the results depend on the processing

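No paired analysis was possible because each group has 1 library, and for the same reason no replicate could be left out. Of 90 recomputed values of the 2 arms and the arm ratio, 85 kept their direction and their call (fold change and p together), 4 changed sign and 1 gained a call. Changed thresholds and assumed variation left the fold change or ratio change almost as it was, below 1.5. Those values could therefore change neither direction nor call, and they are no measure of stability. The p-value alone crossed 0.01 in 13 of the 90. It was lost for the 5p arm with each assumed coefficient of variation in each comparison, 9 values in all, at p between 0.134 and 0.947 by the exact test of edgeR. It was gained for the 3p arm with genome-aligned totals in each comparison (Fisher's exact p = 7.56e-11, 1.46e-40 and 7.19e-11) and, in IR against Sham, without the 10 most abundant (Fisher's exact p = 0.00129). The sign changes concerned the 3p arm, in WI against Sham with DESeq2 size factors (-0.0098), microRNA totals (-0.066) and totals without the 10 most abundant microRNAs (-0.048), and in IR against WI with microRNA totals (0.00098). The gained call was that of the 5p arm with genome-aligned totals in IR against WI (-0.63).

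Genome-aligned totals gave 25 calls in WI against Sham and 111 calls in IR against WI. A fold change above 1.5 with no p-value was met by 357 microRNAs between WI and Sham, 425 between IR and WI and 396 between IR and Sham, as those with few reads then pass. With at least 200 minor-arm reads, 2, 2 and 1 hairpins had a changed arm ratio in the same order, and a ratio change above 2 left 2 in WI against Sham.

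Without miR-192-5p in the total, the 5p share was 2.19% (Sham), 2.43% (WI) and 2.04% (IR), and the 3p share 0.150%, 0.143% and 0.142%. Of genome-aligned reads the 5p arm took 0.587%, 0.779% and 0.503%, and the 3p arm 0.0403%, 0.0460% and 0.0350%. The highest 5p share was in WI with each denominator. For the 3p arm it was in Sham with microRNA reads and in WI with genome-aligned reads.

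The medians of the leukocyte, stromal and erythroid lists in WI against Sham were below 0 with TMM (-0.034, -0.030 and -0.036) and above 0 with genome-aligned totals (0.12, 0.13 and 0.12), an alternative added after seeing the data. With microRNA totals, added in the same way, the stromal median in IR against WI was 0.019 and the biliary epithelial median in WI against Sham was -0.093.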
